A study of Mus musculus with 4 samples.

Results

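The 40 genes described here are immediate early response genes, the transcripts that cells make within minutes of a stimulus from factors already present. They were taken as a fixed list of gene symbols, and all 40 were found among the 57010 genes of the count matrix, each under 1 gene identifier. Their levels were compared in mouse lung cells between 2 pools of 8-week-old C57Bl6/J mice. The Cre_Pos pool held 6 mice that carried Shh.Cre and the floxed Trp73 allele, in which exons 7 to 9 can be removed. The Cre_Neg pool held 6 littermates that were homozygous for the same floxed allele and carried no Cre, so the allele was common to both pools. The Shh promoter drives Cre in the lung epithelium, so endothelial cells carry the floxed allele in both pools and lie outside the lineage that this Cre is known to target. Lungs were perfused and digested with collagenase I, dispase II and DNase I, CD45-positive cells were depleted, EpCAM-positive cells were enriched, and live cells were sorted and fixed. SPLiT-seq, which labels the RNA of fixed cells through rounds of barcoding in wells, was then run in 4 sublibraries that each held cells of both pools. These sublibraries, also called replicates 1 to 4, are technical aliquots and not separate animals. Each genotype was thus 1 pool, genotype and preparation cannot be told apart, no test between the pools was possible, and every interval given is a 95% interval for counting error only.

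Immediate early genes code mostly for transcription factors, such as the FOS and JUN proteins that pair to form AP-1, and for proteins that switch the signal off again, such as phosphatases of the MAP kinases and RNA-binding proteins that speed mRNA decay. Their promoters are held ready for serum response factor and CREB, which kinases of the MAP kinase and calcium pathways act on, and the transcripts are short-lived. In endothelium, KLF2 and KLF4 are also induced by laminar blood flow and keep vessels quiescent, and several genes of the list are known to respond to the enzymatic dissociation of tissue.

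RefSeq promoter windows (build GRCm38.p6, the 250 bases before the transcription start) are shown for 4 members whose levels were higher in Cre_Pos endothelium and, as a contrast, for Klf2, whose level was lower there. Capitals mark a match to the CArG box of serum response factor or to TGACGT, the short form of the cAMP response element TGACGTCA, on either strand.
Fos, chr12:85473640-85473889, plus strand: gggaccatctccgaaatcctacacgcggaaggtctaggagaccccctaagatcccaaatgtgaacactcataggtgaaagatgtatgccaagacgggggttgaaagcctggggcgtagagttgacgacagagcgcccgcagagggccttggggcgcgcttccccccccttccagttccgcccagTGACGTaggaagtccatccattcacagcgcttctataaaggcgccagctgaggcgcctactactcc
Fosb, chr7:19310046-19310295, minus strand: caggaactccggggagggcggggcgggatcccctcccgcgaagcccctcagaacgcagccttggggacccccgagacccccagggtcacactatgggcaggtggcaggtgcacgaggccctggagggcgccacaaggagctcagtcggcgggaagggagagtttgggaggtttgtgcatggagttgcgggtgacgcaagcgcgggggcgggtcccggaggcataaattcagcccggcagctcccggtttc
Atf3, chr1:191183334-191183583, minus strand: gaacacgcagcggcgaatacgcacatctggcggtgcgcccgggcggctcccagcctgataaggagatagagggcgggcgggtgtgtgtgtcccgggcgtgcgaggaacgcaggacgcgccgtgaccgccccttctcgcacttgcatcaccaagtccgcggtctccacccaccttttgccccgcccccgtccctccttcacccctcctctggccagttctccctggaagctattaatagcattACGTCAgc
Zfp36, chr7:28379229-28379478, minus strand: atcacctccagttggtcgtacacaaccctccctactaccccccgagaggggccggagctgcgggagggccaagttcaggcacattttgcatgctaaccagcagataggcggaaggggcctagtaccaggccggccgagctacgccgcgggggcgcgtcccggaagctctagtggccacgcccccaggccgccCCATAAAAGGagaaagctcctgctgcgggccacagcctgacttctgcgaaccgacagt
Klf2, chr8:72318812-72319061, plus strand: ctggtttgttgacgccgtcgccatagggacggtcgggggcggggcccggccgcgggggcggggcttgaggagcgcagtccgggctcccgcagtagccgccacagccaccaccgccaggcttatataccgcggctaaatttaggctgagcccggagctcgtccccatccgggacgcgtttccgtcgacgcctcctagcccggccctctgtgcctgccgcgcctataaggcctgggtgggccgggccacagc
The Fos window held TGACGT at bases -66 to -61 from the start, the Atf3 window held its reverse complement at -8 to -3, and the Zfp36 window held a CArG box at -58 to -49. No match to either motif was found in the windows of Fosb and Klf2. The table held 41 windows of 32 members. TGACGT, which also counts every full element, was found in 26.8% of these windows and in 6.47% of all 32851 windows, and the CArG box in 14.6% against 1.47%. Windows of 1 gene can overlap: by gene, TGACGT was found in 9 of the 32 members and the CArG box in 3, Egr2, Zfp36 and Dusp5. Most of the CArG windows were those of Egr2, which had too few UMIs to be measured in endothelial-like cells. The share by gene was not counted over all genes, so these counts by gene have no background to be set against. The AP-1 site TGANTCA was found in 4.88% of the member windows against 6.75% of all windows, and TATAAA in 12.2% against 12.4%. These are matches of letters and not sites shown to be bound. Bases further upstream than these windows were not searched, so a window without a match does not mean a gene without the motif.

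The kept cells numbered 7696 in the Cre_Neg and 8660 in the Cre_Pos pool, with 17630316 to 25577707 UMIs (unique transcript counts) per pool and sublibrary. Among cells with at least 500 genes, 285 combinations of well barcodes occurred in more than 1 sublibrary. Cell classes were rebuilt from clusters made without the 40 genes among the variable genes, and their names carry "-like" because they rest on markers alone. Endothelial-like cells, in 8 clusters, numbered 2723 in Cre_Neg and 5537 in Cre_Pos, with a median of 5889 and 7189 UMIs per cell. Ciliated-like cells numbered 1225 and 126, with 15539 and 16789 UMIs, and AT2-like cells, the surfactant-making alveolar type, numbered 2077 and 1469, with 11442 and 14228 UMIs. The 12 blood endothelial markers, among them Pecam1, Cdh5 and Cldn5, summed to 20399.9 and 21884 CPM (the usual depth-scaled unit, UMIs of a gene over all UMIs of the class) in the endothelial-like cells and to 52.5 and 98.3 CPM in the ciliated-like cells. In the endothelial-like cells the 9 monocyte markers summed to 1663 and 1812 CPM, with 4 of them in Cre_Neg and 1 in Cre_Pos at 0 UMIs. These markers include Ace, which is also a leading gene of an endothelial-like cluster. Trp73, the targeted gene, had 1524, 2139, 1628 and 1338 UMIs in the Cre_Neg sublibraries of ciliated-like cells, which is 334 CPM, and 219, 167, 239 and 99 UMIs, or 312 CPM, in the Cre_Pos ones. In endothelial-like cells it had 10 and 14 UMIs. Its UMIs were counted over the whole gene, so they do not check whether exons 7 to 9 were removed. Sex-linked transcripts differed between the pools: endothelial-like cells with Xist and no Y-linked UMI numbered 1914 in Cre_Neg and 4798 in Cre_Pos, those with the reverse 355 and 159, and of ciliated-like cells 894 and 5 were Xist-only and 180 and 101 Y-only.

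Summed over the 40 genes, the level was higher in Cre_Pos than in Cre_Neg endothelial-like cells and lower in Cre_Pos ciliated-like cells. In endothelial-like cells it was 2649, 2659, 2703 and 2699 CPM in the 4 Cre_Neg sublibraries and 3468, 3454, 3350.03 and 3334 CPM in the Cre_Pos ones, and the ranges did not overlap. The log2 ratio, Cre_Pos over Cre_Neg, was 0.35 (0.33 to 0.36), which is 1.27-fold. In ciliated-like cells it was 1051, 1071, 1207 and 1081 CPM against 620.04, 902, 736 and 665 CPM, again without overlap, with a log2 ratio of -0.60 (-0.67 to -0.53). In AT2-like cells the sublibraries overlapped, at 1502 to 1616 CPM in Cre_Neg and 1321 to 1546 CPM in Cre_Pos, with a log2 ratio of -0.09 (-0.11 to -0.07). Of the other classes with at least 20 cells in each pool, monocyte-like cells were at 6348 and 7263 CPM and neuroendocrine-like cells at 6481 and 6564 CPM. Alveolar fibroblast-like cells were at 4197 and 4328 CPM, mast and basophil-like cells at 9395 and 10080 CPM and B-like cells at 2183 and 2269 CPM. Mesothelial-like cells were at 4532 and 4319 CPM, AT1-like cells at 1119 and 1076 CPM and T-like cells at 2105 and 2097 CPM. In all of these classes the sublibraries of the pools overlapped. Secretory-like airway cells were at 1097 and 938 CPM, also with overlapping sublibraries. That was close to the ciliated-like cells in Cre_Neg (1102 CPM) but above them in Cre_Pos (728 CPM). Atf3, Jun and Fosb made up 26.6%, 24.6% and 20.4% of the summed difference of 727 CPM in endothelial-like cells. In ciliated-like cells Atf3, Fos and Jun made up 24.3%, 17.02% and 12.9% of a difference of 374 CPM.

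**Figure D1:**
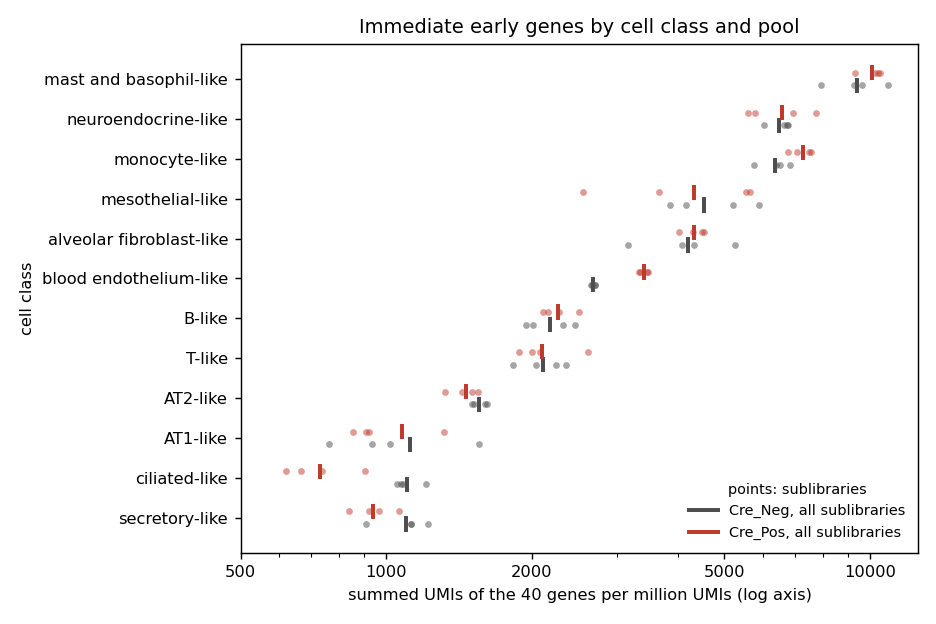
Summed CPM of the 40 genes (log axis) in each class with at least 20 cells per pool; points are the 4 sublibraries and lines all sublibraries together, grey for Cre_Neg and red for Cre_Pos. Endothelial-like cells lie at 2677 (Cre_Neg) and 3404 CPM (Cre_Pos), and ciliated-like cells at 1102 and 728 CPM.

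In endothelial-like cells 38 of the 40 genes had at least 20 UMIs over both pools, the minimum set for a ratio; Egr2 (2 and 5 UMIs) and Dusp2 (3 and 4 UMIs) did not. Of the 38, 26 were higher and 12 lower in Cre_Pos, where 45.9% and 54.1% of all 15668 genes measured were. At least 2-fold higher were 5 (Atf3, Dusp5, Egr1, Fosb and Fos), where 1.63% of all genes were called by that rule, and 1 was at least 2-fold lower (Cebpb; 2.87% of all genes). For 16 genes every Cre_Pos sublibrary lay above every Cre_Neg sublibrary (5.3% of all genes), and for 4, all of the KLF family, every one lay below (5.97% of all genes). The median log2 ratio was 0.14 over the 38 genes and -0.02 over all genes.

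**Figure D2:**
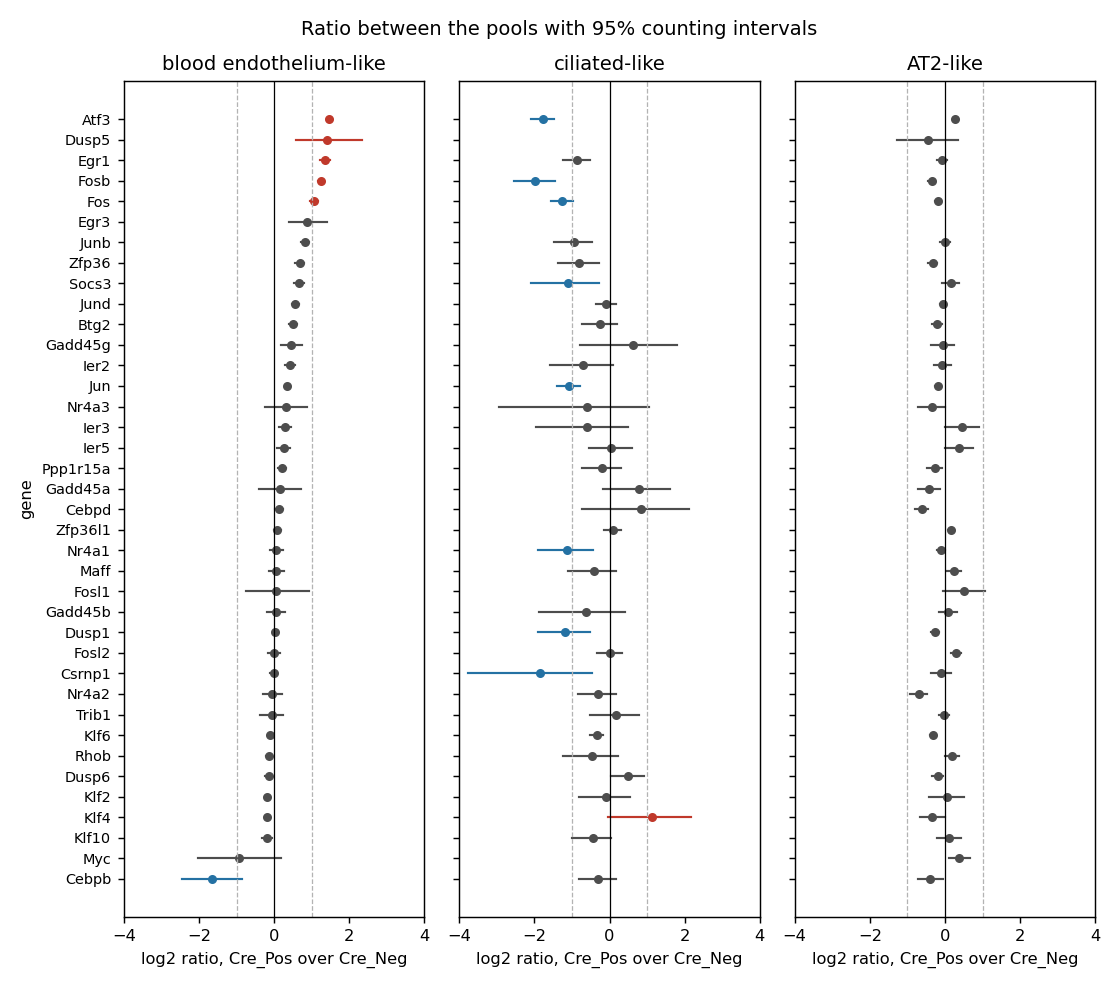
Log2 ratio of Cre_Pos over Cre_Neg for each gene with at least 20 UMIs, in 3 classes; bars are 95% counting intervals, dashed lines mark 2-fold, and red and blue mark genes at least 2-fold higher or lower. Atf3, Egr1, Fosb and Fos lie to the right of the 2-fold line in endothelial-like cells, and Fosb, Csrnp1, Atf3 and Fos to the left of it in ciliated-like cells.

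Of the 11 AP-1 and related leucine zipper factors, 9 were higher in Cre_Pos endothelial-like cells, with a median log2 ratio of 0.35. Fos, an AP-1 subunit, stood at 60.8, 53.7, 58.9 and 57.1 CPM in the Cre_Neg sublibraries and at 119, 129, 121 and 107 CPM in the Cre_Pos ones. The lowest Cre_Pos value was well above the highest Cre_Neg value, and the log2 ratio was 1.06 (0.97 to 1.16). Its relative Fosb stood at 113, 107, 109.9 and 108 against 250.1, 268, 259 and 250.4 CPM, a log2 ratio of 1.24 (1.17 to 1.31). Atf3, a stress-induced partner and repressor among these factors, stood at 115, 109, 103 and 116 against 308, 306, 306 and 297 CPM, with the largest ratio of the group, 1.46 (1.39 to 1.53). The JUN subunits differed less. Jun stood at 649, 674, 662 and 651 against 869, 835, 832 and 822 CPM, a log2 ratio of 0.35 (0.32 to 0.38). Junb stood at 57.6, 45.3, 56.7 and 53.4 against 97.4, 93.6, 95.1 and 88.1 CPM, a log2 ratio of 0.83 (0.72 to 0.93). In both genes the pools did not overlap, which also held for Jund at a log2 ratio of 0.57. Cebpb, a factor of inflammatory genes, was scarce, with 33 UMIs in Cre_Neg and 26 in Cre_Pos. It stood at 2.46, 0.57, 3.26 and 1.17 against 0.59, 0.68, 0.28 and 0.77 CPM, a log2 ratio of -1.65 (-2.45 to -0.86), and was lower in 3 of 4 sublibraries; without replicate 3 the ratio was -0.97 (-1.92 to 0.01). Fosl1, Fosl2, Maff and Cebpd lay between -0.01 and 0.13 on the log2 scale.

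The zinc finger factors and nuclear receptors divided: Egr1 was higher in Cre_Pos endothelial-like cells while the 4 KLF genes were lower. Egr1, a factor of growth and stress responses, stood at 21.6, 26.1, 28.02 and 30.7 CPM in the Cre_Neg and 68.5, 63.9, 70.6 and 70.2 CPM in the Cre_Pos sublibraries, without overlap and with a log2 ratio of 1.35 (1.21 to 1.49). Its relative Egr3 had a log2 ratio of 0.88 on 42 and 191 UMIs. Klf2 stood at 203, 205, 192 and 194 against 181, 181, 165 and 174 CPM, a log2 ratio of -0.18 (-0.23 to -0.12). Klf4 stood at 251, 262, 273 and 278 against 238, 234, 229.9 and 236 CPM, a log2 ratio of -0.18 (-0.23 to -0.13). These are small differences, of 1.13- and 1.14-fold, but in both genes every Cre_Pos sublibrary was below every Cre_Neg one. Klf6, which responds to injury, stood at 176, 172, 180.5 and 174 against 164, 171, 160.1 and 152 CPM, with a log2 ratio of -0.11 (-0.17 to -0.05), and Klf10, a TGF-beta target, had a ratio of -0.19. Nr4a1, an orphan nuclear receptor, stood at 19.7, 21.3, 18.2 and 18.7 against 17.97, 19.9, 20.8 and 22.98 CPM; the pools overlapped, and the log2 ratio was 0.06 (-0.12 to 0.24). Nr4a2, Nr4a3 and Csrnp1 lay between -0.05 and 0.31, and Myc, with 14 and 18 UMIs, at -0.94 (-2.03 to 0.18).

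**Figure D3:**
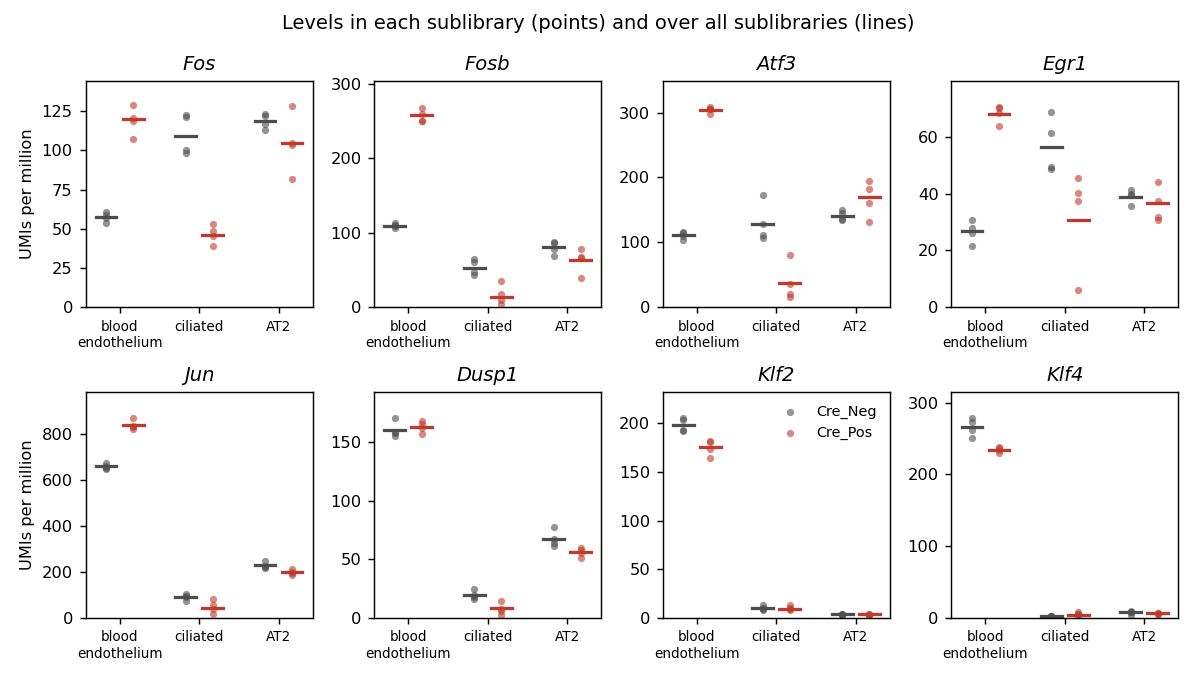
Levels of 8 genes in CPM of the class; points are the 4 sublibraries of a pool and lines all sublibraries together, grey for Cre_Neg and red for Cre_Pos. Fos, Fosb, Atf3, Egr1 and Jun are higher in Cre_Pos endothelial-like cells and lower in Cre_Pos ciliated-like cells, while Klf2 and Klf4 are slightly lower in Cre_Pos endothelial-like cells and near the bottom of the axis in the other classes.

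Among the feedback regulators 9 of the 11 measured were higher in Cre_Pos endothelial-like cells, with a median log2 ratio of 0.29. Zfp36, which speeds the decay of cytokine mRNAs, stood at 44.8, 40.7, 43.9 and 45.9 CPM against 72.4, 70.2, 68.6 and 67.8 CPM, a log2 ratio of 0.68 (0.56 to 0.79). Btg2, an antiproliferative regulator of mRNA deadenylation, stood at 50.2, 50.1, 51.04 and 52.9 against 70.7, 76.7, 68.6 and 73.7 CPM, a log2 ratio of 0.51 (0.41 to 0.62). Neither gene had overlapping pools, as was the case for Socs3, an inhibitor of cytokine receptor signalling (log2 ratio 0.66). Ier2 stood at 30.7, 30.5, 34.5 and 36.3 against 45.9, 43.2, 44.997 and 42.1 CPM, a log2 ratio of 0.42 (0.29 to 0.55). Ier3, a regulator of cell survival, stood at 27.6, 24.6, 25.4 and 29.3 against 32.4, 34.5, 32.1 and 30.2 CPM, a log2 ratio of 0.29 (0.14 to 0.44). Both were non-overlapping by a narrow margin. Dusp1, the phosphatase that turns off p38 and JNK, stood at 159, 156, 171 and 158 against 168, 166, 157 and 162 CPM; the pools overlapped and the log2 ratio was 0.02 (-0.04 to 0.09). Dusp5, a nuclear ERK phosphatase, was scarce (14 and 91 UMIs) and stood at 0.25, 1.52, 0.43 and 0.702 against 2.25, 2.48, 1.56 and 1.72 CPM, a log2 ratio of 1.40 (0.58 to 2.33), which was 1.99 (0.78 to 3.49) without replicate 2. The ERK phosphatase Dusp6, at -0.15, and Trib1, at -0.07, were the lower ones, and Ier5 and Zfp36l1 were at 0.25 and 0.08. Of the 5 genes of growth arrest, stress and the cytoskeleton, Gadd45g (0.46) and Ppp1r15a (0.21), the latter a phosphatase subunit that restarts translation after stress, were higher without overlap, Gadd45a (0.14) and Gadd45b (0.05) overlapped, and the small GTPase gene Rhob was at -0.15.

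The endothelial-like cells were also compared cluster by cluster. The summed level was higher in Cre_Pos in all 8 clusters, and so were Fos, Fosb, Atf3, Egr1, Jun, Junb and Zfp36 taken singly. It went from 2652 to 3013 CPM in the cluster with aerocyte markers, from 2489 to 3467 CPM in the cluster with arterial markers and from 2940.2 to 4520.4 CPM in the cluster led by Slc6a2 and Vwf. Klf4 was lower in all 8 clusters, and Klf2 was lower in 6 and higher in the Slc6a2 cluster and the arterial cluster. Klf6 was lower in 5 clusters and higher in 3, and Nr4a1 was lower in 3 and higher in 5. Across the first-round wells with at least 20 endothelial-like cells, the summed level ran from 2192 to 3225 CPM with a median of 2702 in 22 Cre_Neg wells and from 2955 to 3880 CPM with a median of 3400.5 in 21 Cre_Pos wells. The wells thus overlapped between 2955 and 3225 CPM. Wells of 1 pool share their suspension and are not replicate animals.

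**Figure D4:**
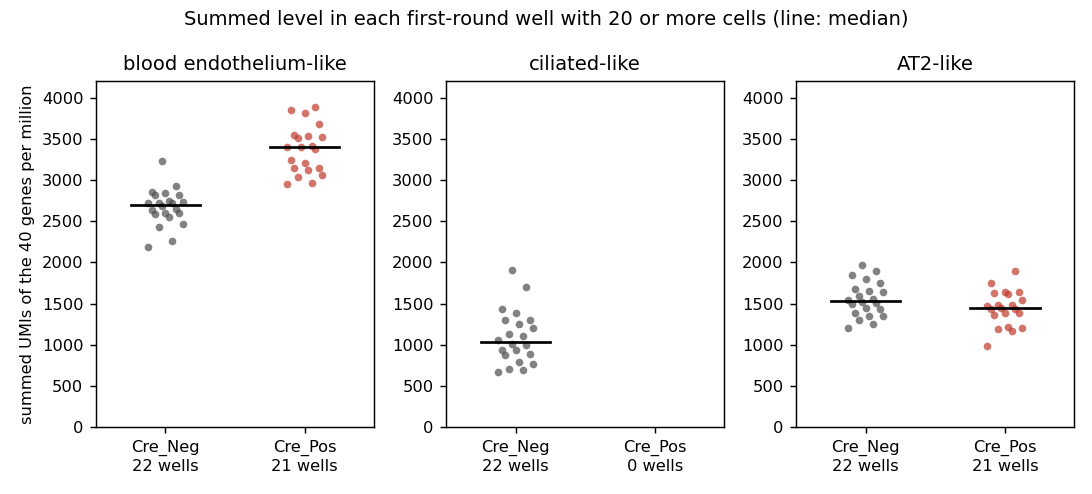
Summed CPM of the 40 genes in each first-round well with at least 20 cells of the class; points are wells and black lines medians. The medians are 2702 and 3400.5 CPM in endothelial-like cells and 1534 and 1447 CPM in AT2-like cells, and no Cre_Pos well held 20 ciliated-like cells.

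With each cell thinned to 2000 UMIs, leaving out 184 Cre_Neg and 143 Cre_Pos cells below that depth, Fos had a UMI in 8.03% of the endothelial-like cells of Cre_Neg and in 16.9% of those of Cre_Pos (20.2% and 37.7% unthinned). Atf3 was seen in 13.4% and 26.4% (23.9% and 42.9% unthinned), and Fosb in 13.5% and 25.8% (23.5% and 42.9% unthinned). Jun was widespread, in 66.1% and 74.97% of the thinned cells. Klf4 was seen in 39.98% and 34.5% and Klf2 in 31.3% and 27.6%. In AT2-like cells, thinned likewise, Klf2 was seen in 0.94% and 0.55%. A thinned endothelial-like cell held on average 5.23 UMIs of the 40 genes in Cre_Neg and 6.60 in Cre_Pos, and 2.76% and 2.39% of cells held none. Ciliated-like cells were thinned likewise, leaving out 10 and 6 cells, and held on average 2.06 UMIs in Cre_Neg and 1.44 in Cre_Pos. Their median was 1 UMI in both pools, and 35.6% and 35.0% of cells held none. The lower mean in Cre_Pos thus came without a lower median or a larger share of cells with none.

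The higher level in Cre_Pos endothelial-like cells was found among Xist-only and not among Y-only cells. Xist-only cells had a summed level of 2616, 2615, 2711 and 2657 CPM in the Cre_Neg sublibraries and 3508, 3504, 3410.2 and 3377 CPM in the Cre_Pos ones, a log2 ratio of 0.38 (0.36 to 0.40). Y-only cells had 2683, 2728, 2800.1 and 2486 CPM against 2268, 2294, 2143 and 2064 CPM, a log2 ratio of -0.28 (-0.35 to -0.22). Within each split the pools did not overlap, and their order was opposite. Of 31 genes measured in Y-only cells 24 were lower in Cre_Pos (50.5% of all genes) and 1 at least 2-fold lower (Gadd45g; 3.32% of all genes). Of these 24, 11 were lower in each of the 4 sublibraries (8.53% of all genes), and the median log2 ratio was -0.34 against -0.01 for all genes. Atf3 stood at 114, 109, 112 and 114 CPM in the Cre_Neg and 324, 309, 325 and 306 CPM in the Cre_Pos sublibraries of Xist-only cells, a log2 ratio of 1.49 (1.42 to 1.57). In Y-only cells it stood at 78.7, 109.7, 107 and 74.9 against 64.4, 83.99, 26.7 and 57.1 CPM, a log2 ratio of -0.70 (-1.09 to -0.33). Fosb was at 1.33 and -0.44, Fos at 1.11 and -0.09 and Egr1 at 1.31 and -0.01 on the log2 scale, so these 4 genes were above 0 in Xist-only cells and below it, or near 0, in Y-only cells. Klf2 and Klf4 were lower in Cre_Pos Y-only cells, at -0.67 and -0.48. Y-only cells were compared with Xist-only cells within each pool as well: the log2 ratio of the summed level was 0.02 (-0.02 to 0.05) in Cre_Neg and -0.65 (-0.70 to -0.60) in Cre_Pos. Cells were not traced to mice, so how many mice gave the Y-only or Xist-only cells of a pool is not known, and the difference between the splits was not tested.

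**Figure D5:**
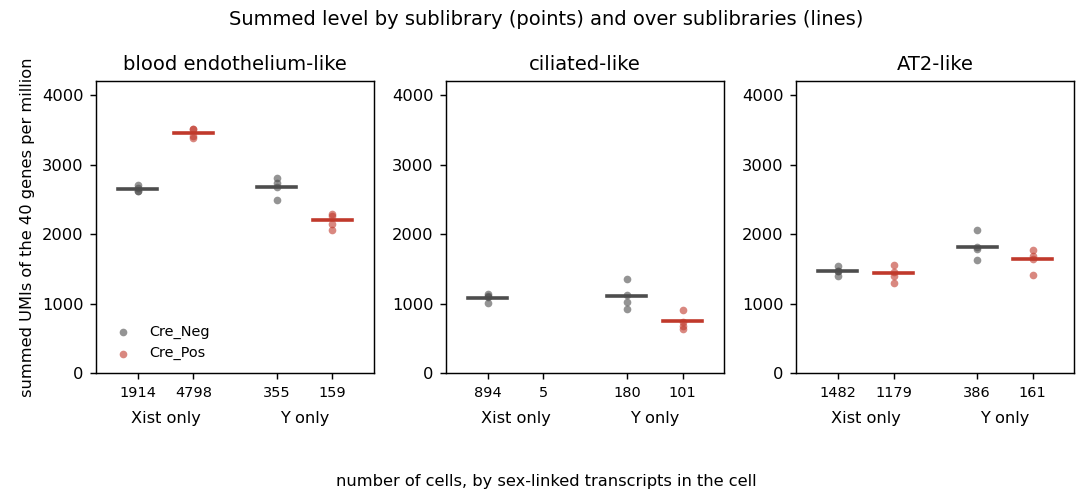
Summed CPM of the 40 genes in cells with UMIs of Xist only or of 4 Y-linked genes only, by pool; points are sublibraries, lines all sublibraries together, and the numbers below are cells. In endothelial-like cells the Xist-only Cre_Pos cells lie at 3452 CPM and the Y-only Cre_Pos cells at 2200 CPM, and the 5 Xist-only Cre_Pos ciliated-like cells are not drawn.

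In ciliated-like cells most of the same genes were lower in Cre_Pos, on the 126 Cre_Pos cells available. Of 34 genes measured 25 were lower and 9 higher (46.7% and 53.3% of all 14435 genes); Fosl1, Egr2, Egr3, Dusp2, Dusp5 and Myc had too few UMIs. At least 2-fold lower were 8 (Fosb, Csrnp1, Atf3, Fos, Dusp1, Nr4a1, Socs3 and Jun), where 4.67% of all genes were called, and 1 was at least 2-fold higher (Klf4; 3.08% of all genes). For 9 genes every Cre_Pos sublibrary lay below every Cre_Neg one (4.54% of all genes), and for Gadd45a alone above (3.46% of all genes). The median log2 ratio was -0.44 over the 34 genes and 0.03 over all genes, and -0.69 over the AP-1 and related factors. The ciliated markers summed to 18013 and 16498 CPM, the secretory markers to 1549 and 2031 CPM and the blood endothelial markers to 52.5 and 98.3 CPM; their part in these ratios was not tested.

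Fos stood at 100.01, 98.3, 121 and 123 CPM in the Cre_Neg and 39.1, 53.2, 45.3 and 48.3 CPM in the Cre_Pos sublibraries of ciliated-like cells, without overlap and with a log2 ratio of -1.26 (-1.55 to -0.98). Fosb stood at 47.5, 43.3, 60.4 and 63.9 against 9.03, 17.7, 3.88 and 34.8 CPM, a log2 ratio of -1.98 (-2.54 to -1.46). The Cre_Pos value of Fosb rested on 31 UMIs in 13 cells, 12 of them in 1 cell. Atf3 stood at 129, 106, 173 and 110.4 against 19.6, 80.8, 34.9 and 16.1 CPM, a log2 ratio of -1.78 (-2.10 to -1.47), on 87 Cre_Pos UMIs in 20 cells; without replicate 2 it was -2.45. Egr1 stood at 48.5, 49.3, 68.9 and 61.3 against 6.02, 37.4, 40.1 and 45.6 CPM, a log2 ratio of -0.88 (-1.25 to -0.53). For each of these 4 genes the pools did not overlap, although the Cre_Pos sublibraries of Fosb, Atf3 and Egr1 were far apart. Jun stood at 91.6, 94.2, 104 and 71.96 against 37.6, 80.8, 18.1 and 53.6 CPM and overlapped, with a log2 ratio of -1.08 (-1.39 to -0.79). Junb stood at 29.7, 31.8, 30.6 and 26.3 against 12.04, 9.85, 16.8 and 26.8 CPM, a log2 ratio of -0.94 (-1.47 to -0.46), and replicate 4 went the other way.

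Dusp1 stood at 15.8, 19.7, 18.1 and 24.8 against 7.52, 5.91, 14.2 and 2.68 CPM in ciliated-like cells, a log2 ratio of -1.17 (-1.90 to -0.53), on 20 Cre_Pos UMIs; without replicate 3 it was -1.77. Zfp36 stood at 21.9, 24.9, 27.9 and 20.7 against 19.6, 15.8, 9.05 and 10.7 CPM, a log2 ratio of -0.80 (-1.36 to -0.28). Neither gene overlapped between the pools. Socs3 stood at 12.03, 10.7, 11.03 and 11.4 against 3.01, 3.94, 5.17 and 10.7 CPM, a log2 ratio of -1.12 (-2.09 to -0.28), on 12 Cre_Pos UMIs. Csrnp1, a nuclear factor induced by AXIN1, stood at 6.75, 7.27, 5.203 and 5.35 against 0, 1.97, 2.59 and 2.68 CPM, a log2 ratio of -1.86 (-3.75 to -0.46), on 4 Cre_Pos UMIs. Nr4a1 stood at 17.3, 16.3, 17.1 and 17.7 against 0, 0, 21.99 and 2.68 CPM, a log2 ratio of -1.13 (-1.91 to -0.45). Of the 18 Cre_Pos UMIs of Nr4a1, 17 came from 3 cells; without replicate 3 the log2 ratio was -4.72 (-10.03 to -2.23) on 1 Cre_Pos UMI. Ier2 stood at 7.595, 9.38, 12.1 and 10.2 against 4.51, 7.88, 7.76 and 2.68 CPM, Ier3 at 4.01, 4.04, 5.203 and 5.35 against 1.505, 7.88, 1.29 and 2.68 CPM and Btg2 at 19.8, 19.4, 21.9 and 26.3 against 7.52, 13.8, 29.7 and 18.8 CPM. The log2 ratios of these 3 genes were -0.69, -0.60 and -0.25, and the pools overlapped in each.

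Of the 4 KLF genes in ciliated-like cells 3 were lower in Cre_Pos, and the intervals of Klf2, Klf4 and Klf10 included 0. Klf6 stood at 173, 183, 181 and 169 against 117, 209, 141 and 83.1 CPM, a log2 ratio of -0.34 (-0.51 to -0.18). Klf2 stood at 8.65, 12.9, 9.57 and 8.27 against 7.52, 9.85, 9.05 and 13.4 CPM, a log2 ratio of -0.09 (-0.80 to 0.54). Klf4 stood at 2.53, 1.94, 1.87 and 1.46 against 4.51, 0, 5.17 and 8.04 CPM, a log2 ratio of 1.13 (-0.03 to 2.16) on 10 Cre_Pos UMIs. Klf10 had a log2 ratio of -0.45 (-0.99 to 0.05). Jund, Fosl2, Zfp36l1 and Ier5 lay between -0.09 and 0.09, and the remaining measured genes between -0.62 (Gadd45b) and 0.82 (Cebpd). In barcodes with at most 50 UMIs, taken as free RNA, Fos was at 98.7 and 115 CPM, Fosb at 119.6 and 132 CPM, Jun at 339 and 398 CPM, Klf2 at 39.1 and 47.7 CPM and Klf4 at 66.01 and 84.6 CPM in the Cre_Neg and Cre_Pos pools. Egr1 went there from 64.7 to 55.1 CPM, Nr4a1 from 48.5 to 46.6 CPM and Klf6 from 147 to 138 CPM, and the 40 genes summed to 1837 and 1992 CPM. The part of free RNA in the ciliated-like ratios was not tested. Restricted to Y-only cells, 180 in Cre_Neg and 101 in Cre_Pos, the summed level of ciliated-like cells was 1020, 920, 1357 and 1120 CPM against 642, 913, 740.0 and 683 CPM, with a log2 ratio of -0.57 (-0.66 to -0.48). The pools did not overlap there; 21 of 30 genes were lower (45.3% of all genes) and 8 at least 2-fold lower (2.95% of all genes). With 5 Xist-only Cre_Pos cells, no comparison was made among Xist-only ciliated-like cells.

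In AT2-like cells the summed level was lower in Cre_Pos in the largest of 4 clusters, where it went from 1425 to 1179 CPM. In the other 3 it was higher by small amounts. It went from 1652 to 1662 CPM, from 2435 to 2592 CPM, and from 711 to 783 CPM in a shallow cluster of 78 and 35 cells. Of 37 genes measured (Egr2, Egr3 and Dusp2 had too few UMIs) 23 were lower and 14 higher in Cre_Pos (47.0% and 53.0% of all 15232 genes), and none was 2-fold lower or higher, where 1.77% and 1.32% of all genes were. For 8 genes every Cre_Pos sublibrary lay below every Cre_Neg one (4.18% of all genes) and for 0 above (5.28% of all genes); the median log2 ratio was -0.08 against 0.01 for all genes. Fos stood at 113, 122, 123 and 117 CPM against 81.995, 105, 129 and 104 CPM, Fosb at 87.3, 86.5, 68.1 and 77.99 against 38.8, 66.9, 77.8 and 65.4 CPM and Atf3 at 145, 135, 135 and 149 against 131, 194, 183 and 161 CPM. These 3 genes overlapped between the pools, with log2 ratios of -0.18, -0.35 and 0.27. Jun stood at 249, 224, 217 and 221 against 199, 213, 185 and 196 CPM, a log2 ratio of -0.19 (-0.25 to -0.14). Zfp36 stood at 45.2, 44.4, 52.3 and 58.8 against 41.2, 41.2, 37.2 and 38.8 CPM, a log2 ratio of -0.33 (-0.45 to -0.20). Klf6 stood at 146, 133, 139 and 167 against 99.1, 131, 116 and 115 CPM, a log2 ratio of -0.32 (-0.39 to -0.25). In these 3 genes the Cre_Pos sublibraries lay below the Cre_Neg ones without overlap. Dusp1 stood at 77.4, 63.7, 61.2 and 67.7 against 51.2, 55.2, 60.1 and 57.9 CPM and Btg2 at 48.6, 49.9, 47.5 and 50.4 against 40.8, 39.7, 43.1 and 47.1 CPM, with log2 ratios of -0.26 and -0.21 and no overlap. Junb stood at 39.5, 32.8, 39.9 and 30.4 against 35.4, 37.005, 33.7 and 36.04 CPM and Egr1 at 39.4, 35.8, 39.9 and 41.3 against 30.7, 44.2, 37.4 and 31.9 CPM, with ratios of 0.00 and -0.08. The largest ratios were those of the orphan receptor Nr4a2 (-0.70) and the leucine zipper factor Cebpd (-0.61), both without overlap. Nr4a1 stood at 64.7, 62.6, 52.9 and 65.9 against 55.1, 64.2, 58.5 and 50.4 CPM, Ier2 at 12.4, 16.1, 13.7 and 16.03 against 12.5, 18.5, 11.4 and 12.01 CPM and Ier3 at 3.35, 2.698, 3.38 and 2.85 against 2.01, 3.61, 5.97 and 5.12 CPM. All 3 overlapped, with log2 ratios of -0.09, -0.07 and 0.44. Klf2 stood at 3.18, 2.83, 3.54 and 4.095 against 3.22, 3.46, 2.89 and 4.33 CPM and Klf4 at 9.22, 8.23, 7.89 and 4.45 against 5.83, 5.26, 6.93 and 6.105 CPM, both low in this class.

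Between cell types, the flow-responsive genes Klf2 and Klf4 and several regulators were higher in endothelial-like than in ciliated-like and AT2-like cells in both pools, while Fos and Egr1 were lower in Cre_Neg and higher in Cre_Pos. Over AT2-like cells in Cre_Neg, 14 of 38 genes were at least 2-fold higher (20.6% of all genes) and 9 at least 2-fold lower (23.7% of all genes). Over ciliated-like cells in Cre_Neg 19 were at least 2-fold higher (22.8% of all genes) and 3 lower (31.5% of all genes). In Cre_Pos the numbers were 17 higher (21.8% of all genes) and 6 lower (23.2% of all genes) over AT2-like cells, and 24 higher (20.5% of all genes) and 3 lower (28.9% of all genes) over ciliated-like cells. Klf2 was higher in endothelial-like than in AT2-like cells by 5.88 (Cre_Neg) and 5.66 (Cre_Pos) on the log2 scale, and than in ciliated-like cells by 4.29 and 4.21. Klf4 was higher by 5.14 and 5.29 than in AT2-like cells and by 7.08 and 5.76 than in ciliated-like cells. Csrnp1 was higher by at least 3.00, Ier3 by at least 2.53, Rhob by at least 1.85, Jun by at least 1.54 and Dusp1 by at least 1.26 in these 4 comparisons. Fos had log2 ratios of -1.05 over AT2-like and -0.93 over ciliated-like cells in Cre_Neg, and of 0.19 and 1.39 in Cre_Pos. Egr1 likewise went from -0.54 and -1.08 in Cre_Neg to 0.89 and 1.15 in Cre_Pos, and Atf3 from -0.35 and -0.22 to 0.84 and 3.02. For these 3 genes the order of endothelial-like cells against ciliated-like and AT2-like cells was therefore opposite in the 2 pools. In Cre_Pos the endothelial-like cells were mostly Xist-only (4798 against 159 Y-only) and the ciliated-like cells mostly Y-only (101 against 5 Xist-only). Cell type and sex were thus not separated in that comparison. Cre_Pos AT2-like cells were, like the endothelial-like ones, mostly Xist-only (1179 against 161 Y-only). Cebpb was lower in endothelial-like cells in all 4 comparisons (log2 ratios of -2.12 to -4.86), as was Gadd45a (-0.68 to -2.28). Nr4a1 was lower than in AT2-like cells (-1.65 and -1.50) and higher than in ciliated-like cells (0.20 and 1.39).

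Among all classes with at least 20 cells, Klf4 was highest in endothelial-like cells in both pools, at 266 and 234 CPM, ahead of monocyte-like cells at 126 and 147 CPM. Klf2 was highest in neutrophil-like cells of Cre_Neg (275 CPM on 49 UMIs), followed by endothelial-like cells (199 CPM), and in Cre_Pos it was highest in endothelial-like cells (176 CPM), followed by T-like cells (169 CPM). Egr1 was highest in neuroendocrine-like cells (1075 and 998 CPM), Nr4a1 in monocyte-like cells (1094 and 1476 CPM) and Jun and Dusp5 in mast and basophil-like cells. Trib1 and Cebpb were lowest in endothelial-like cells in both pools.

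Genes upstream of the response, and other stress and signal-induced lists, were set beside it. Of all genes, 45.9% were higher and 54.1% lower in Cre_Pos endothelial-like cells, 53.3% and 46.7% in ciliated-like cells, and 53.0% of all genes were higher in AT2-like cells. Of 24 upstream kinases and factors in endothelial-like cells 18 were higher and 6 lower in Cre_Pos, none by 2-fold; Srf, which encodes serum response factor, had the highest ratio (0.53, from 12.97 to 18.7 CPM) and Crem, a CREB relative, the lowest (-0.22). In ciliated-like cells 16 of the 24 were higher, with a median of 0.09, and in AT2-like cells 15, with a median of 0.05. Of 12 heat shock genes in endothelial-like cells 8 were higher, and the inducible chaperones Hspa1b (14.2 to 42.5 CPM, log2 ratio 1.58) and Hspa1a (14.9 to 42.4 CPM, 1.51) were past 2-fold. The summed heat shock level had a log2 ratio of 0.12 (0.09 to 0.14) in all endothelial-like cells and of -0.09 (-0.18 to 0.00) in the Y-only ones. In ciliated-like cells 10 of these 12 were lower, with a median of -0.21. Of 10 glucocorticoid-induced genes measured in endothelial-like cells 8 were lower, led by Fkbp5 (-1.08), a co-chaperone of the glucocorticoid receptor. In ciliated-like cells 9 of 12 were lower, led by Pdk4 (-1.70) and Per1 (-1.36). The summed level of this list also differed by sex call. In Cre_Neg endothelial-like cells it was 3414 CPM in Xist-only and 727 CPM in Y-only cells. Its pool log2 ratio was -0.57 and -0.40 in these splits, and the cause was not tested. Of 11 NF-kB targets measured in endothelial-like cells 8 were lower, with Nfkbiz at 0.61 and Vcam1 at -0.81. Of 12 flow-responsive genes 8 were lower, among them Edn1 (-0.56), which encodes endothelin. Klf2 and Klf4 are flow-responsive and also immediate early genes, and both were lower. The flow-responsive count is therefore not independent of the immediate early list. Genes induced and genes repressed by flow were not counted apart, so the count does not give the direction of a flow response. The 10 housekeeping genes had medians of 0.02, 0.06 and 0.05 in the 3 classes.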

How the data were processed

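RNA of single lung cells was counted by SPLiT-seq (Parse Evercode WT v2). The authors deposited a matrix of whole UMI counts per barcode and gene, without normalization, and tables of barcodes and genes. Per the submitters' processing notes the build is GRCm39, while the deposited gene table names mm10; no aligner is named by the sources used. The matrix held 191160309 UMIs in 647296 barcodes.

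Barcodes needed 500 or more genes and no more than 15% of UMIs from mitochondrial genes (16541 passed), and 185 doublets called by Scrublet per sublibrary (1.12%) were removed, which left 16356 cells. Of the 40 genes, 11 were among the variable genes and were left out before clustering: 2989 variable genes, 30 principal components and 15 neighbours gave 31 Leiden clusters at resolution 1 (scanpy 1.11.5, leidenalg 0.10.2, Python 3.11.15). A marker passed at 4-fold the median cluster (10 CPM added to both) and 10% of cells with a UMI; a name needed 3 passing markers. Clusters with as many leading genes of another class stayed unnamed, a rule set after seeing them, and 25 were named. With the 40 genes kept among the variable genes, 98.6% of cells had the same class.

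UMIs were summed per class and pool and divided by all UMIs of the class. Ratios have the exact conditional binomial interval, sums an exact Poisson interval, and a pool at 0 was set to 3 counts. Tested on simulated Poisson counts, the intervals held the simulated ratio of 95.6% of 15668 genes (endothelial-like cells), 96.4% of 14435 (ciliated-like) and 95.5% of 15232 (AT2-like). The intervals are built for such counts, so this checks the calculation only. It does not show that they cover the spread between cells, sublibraries or mice. Cells were called Xist-only or Y-only by UMIs of Xist against Ddx3y, Kdm5d, Eif2s3y and Uty. Alternatives covered scaling, UMI and gene minimums, doublets, cell weighting, sublibraries, sex calls, class limits and free RNA. The 40 genes, the other lists and the roles were chosen with earlier results of these data known. Values in each sublibrary are printed for Fos, Fosb, Jun, Junb, Egr1, Atf3, Nr4a1, Dusp1, Klf2, Klf4, Klf6, Zfp36, Ier2, Ier3 and Btg2 and for other members at least 2-fold different; of the other lists, the 2 highest and 2 lowest could be named. The values shown for other classes were chosen after they were seen.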

Additional observations from a re-analysis of the deposited data

Results flagged for a closer look

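Of 96 groups of 4 sublibraries checked for a value far from the rest, 2 were flagged, where chance flags about 1 in 20. Nr4a1 in Cre_Pos ciliated-like cells was 22.0 CPM in replicate 3 and at most 2.68 CPM in the others, with 17 of its 18 UMIs in 3 cells. Ier2 in Cre_Pos AT2-like cells was 18.5 CPM in replicate 2 and 11.4 to 12.5 CPM in the others.

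Several genes moved one way in every sublibrary of one class and the opposite way in every sublibrary of another. These differences were not tested, and the sublibraries are technical aliquots. The share of all genes that met this rule is not given, so the genes listed have no background to be set against. Between endothelial-like and ciliated-like cells they were Fos (1.06 and -1.26), Fosb (1.24 and -1.98), Jun (0.35 and -1.08), Egr1 (1.35 and -0.88), Atf3 (1.46 and -1.78), Ier2 (0.42 and -0.69), Zfp36 (0.68 and -0.80) and Socs3 (0.66 and -1.12), all as log2 ratios of Cre_Pos over Cre_Neg. Between endothelial-like and AT2-like cells they were Jun (0.35 and -0.19), Zfp36 (0.68 and -0.33) and Btg2 (0.51 and -0.21). Between ciliated-like and AT2-like cells they were Socs3 (-1.12 and 0.15) and Gadd45a (0.78 and -0.42). The sex split of the Cre_Pos cells differed between classes: 4798 Xist-only and 159 Y-only endothelial-like cells, but 5 and 101 ciliated-like cells. Among Y-only cells the summed level was lower in Cre_Pos in both classes, with log2 ratios of -0.28 (endothelial-like) and -0.57 (ciliated-like).

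Opposite movement in every sublibrary was also seen between Xist-only and Y-only cells, again without a test or a share over all genes. In endothelial-like cells it held for Fosb (1.33 and -0.44), Atf3 (1.49 and -0.70), Ier2 (0.50 and -0.26), Ier3 (0.55 and -0.56), Ier5 (0.48 and -0.34), Zfp36l1 (0.30 and -0.44) and Socs3 (0.71 and -0.35). In AT2-like cells it held for Dusp6 (-0.36 and 0.80) and Socs3 (0.26 and -1.24). The Y-only values rest on 159 Cre_Pos endothelial-like and 161 Cre_Pos AT2-like cells.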

How the results depend on the processing

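Most values kept their direction and size: of the summary values under the alternatives 191 were unchanged by the limits set and 23 moved, and of the single gene ratios 808 were unchanged, 45 moved and 5 reversed. The reversals all came with Y-only cells: in endothelial-like cells Fos was -0.086, Fosb -0.44, Egr1 -0.011 and Atf3 -0.70, and in ciliated-like cells Socs3 was 0.031. With Y-only cells the median was also -0.34 in endothelial-like cells (0.14 with all cells) and -0.26 in ciliated-like cells (-0.44). In Y-only AT2-like cells 4 of 36 genes were at least 2-fold lower and 2 at least 2-fold higher (0 and 0 with all cells). There 20 of the 36 were below 0, where 39.1% of all genes were. Counts of 2-fold genes under the alternatives are given here without the share over all genes. Of endothelial-like cells 1 gene, Cebpb, was at least 2-fold lower; this became 0 with at least 100 UMIs, 2 with wide classes, 0 in the largest cluster, 2 with 10% free RNA taken off, and 0 to 2 without 1 replicate. In the largest cluster the medians were 0.36 in endothelial-like and -0.25 in AT2-like cells, with 1 AT2 gene at least 2-fold lower, as with free RNA taken off (1). The ciliated median was -0.32 with a minimum of 1 UMI and -0.46 to -0.33 without 1 replicate, and endothelium over ciliated in Cre_Neg was 0.80 to 0.95 without 1 replicate (0.99 with all). Without the gene with the most UMIs, the summed levels in Cre_Neg and Cre_Pos were 2017 and 2565 CPM in endothelial-like (without Jun), 924 and 588 CPM in ciliated-like (without Klf6) and 1327 and 1259 CPM in AT2-like cells (without Jun). The wide classes, largest cluster and free RNA settings were chosen after seeing the data, and the causes were not tested. No paired analysis was possible because each group was 1 pool and no test was run; ratios within each sublibrary, which held both pools, were counted instead. Xist-only ciliated-like cells were not run, with 5 Cre_Pos cells. The ciliated-like ratios rest on 1687 Cre_Pos UMIs of the 40 genes.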
